A study of Homo sapiens with 6 samples.

Results

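The glucocorticoid receptor gene NR3C1 and 9 genes that glucocorticoids are known to induce were followed in HUDEP-2, a line of immortalised human erythroid progenitors. The 10 genes were taken by gene name from tables of 62754 genes, and all 10 were found, each as 1 row. They are NR3C1, FKBP5, TSC22D3, PER1, DUSP1, ZFP36L2, ZBTB16, KLF9, ERRFI1 and SGK1. Poly(A) RNA was sequenced from 6 libraries, 3 from cells given an shRNA against MEN1 (labelled MEN1 knockdown) and 3 from cells given a non-targeting control shRNA (labelled WT). MEN1 encodes menin, a scaffold protein of MLL1-type histone methyltransferase complexes. Both shRNAs were delivered by lentivirus, and cells were harvested 72 h after transduction, having been in puromycin at 2 µg/ml from 24 h, for 48 h. The medium of both groups held 3 units/ml erythropoietin, 50 ng/ml stem cell factor, 1 µg/ml doxycycline and 1e-06 M dexamethasone. Dexamethasone, a synthetic glucocorticoid, was thus present throughout in all 6 libraries, so the comparison shows how 1 MEN1 hairpin altered these genes under hormone, not the response to the hormone. An off-target effect of that hairpin cannot be told apart from the loss of MEN1. The labels call the replicates biological, and p-values measure the spread between these libraries.

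The glucocorticoid receptor rests in the cytoplasm in a complex with HSP90 and co-chaperones, moves to the nucleus when it binds hormone, and acts on DNA with coactivators or corepressors. Some of its induced genes restrain the signal itself, such as FKBP5, and others encode regulators of transcription, RNA decay and kinases. In erythroid progenitors, glucocorticoids act with stem cell factor and erythropoietin to prolong division and delay maturation.

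In cells with the MEN1 shRNA, 5 of the 10 genes were lower, 3 were higher and 2 did not pass the test. Levels are in TPM, a share of each library corrected for transcript length. The test was limma on log2(TPM + 1), 2-sided, with Benjamini-Hochberg adjustment over 14294 genes and a threshold of 0.05 on the adjusted p. Each log2 fold change below is on that scale, MEN1 shRNA minus control. Changes were widespread in these libraries: 53.6% of tested genes passed, 22.1% higher and 31.5% lower, which is the background for the 8 of 10 called here, 3 higher and 5 lower. That background includes many genes of low level, which were called less often. At a mean TPM of 5 or more, 6345 of 10188 genes passed, and 7 of the 9 tested among the 10. The median log2 fold change was -0.17 over the 10 genes and -0.07 over all genes tested. A change of at least 2-fold with an adjusted p under 0.05 was found for ZFP36L2 and ZBTB16, both lower, against 11.9% of all tested genes in either direction, 4.96% higher and 6.9% lower.

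The targeted gene checks the labels. MEN1 measured 6.29, 6.44 and 6.88 TPM in the MEN1 shRNA libraries and 41.2, 39.6 and 37.1 TPM in the controls, so 16.6% of the control level remained (log2 fold change -2.42 ± 0.0803 SE, adjusted p = 8.5e-06). The total of aligned bases per library was worked out from coverage and FPKM in genes with a single transcript. It was 5.56 to 7.98 gigabases with the MEN1 shRNA and 7.00 to 10.8 gigabases in the controls. All 10 erythroid markers examined were at 1 TPM or more in every library. Their summed level was 97735 to 109894 TPM with the MEN1 shRNA and 56310 to 62401 TPM in the controls. Over all genes 22.1% were higher and 31.5% lower, and 8 of these 10 markers were higher and none lower. Among them the band 3 gene SLC4A1 had a log2 fold change of 1.93. Globin and mitochondrial transcripts together made up 11.3 to 12.3% of TPM with the MEN1 shRNA and 7.43 to 8.01% in the controls. The 10 genes were also fitted without globin and mitochondrial genes in the total, which changed the calls of TSC22D3 and PER1 (values beside each). The part of the other marker shifts in the values below was not tested. In bulk RNA, fewer cells of a type and less RNA per cell cannot be told apart.

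Promoter sequence was read for 8 of the 10 genes, not for ZFP36L2 or ZBTB16, in 20 windows running from 250 bases before to 50 bases after an annotated start (RefSeq, GRCh38.p14). Windows were searched on both strands for the receptor's consensus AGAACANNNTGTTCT, for its half-site AGAACA, for the cAMP response element TGACGTCA and for the E-box CACGTG bound by clock and MYC-family factors. The full consensus was in 0 of the 20 windows and in 1 of 34943 windows over all genes (0.00286%). The half-site, which any full consensus also contains, was in 2 of the 20 and in 14.8% of all windows. The E-box was in 3 of the 20 and in 7.23% of all, and the cAMP response element in 1 of the 20 and in 1.84% of all. A match is a description of letters and says nothing of binding. The 5 windows with a match follow because they carry every match among these genes. All lie on the minus strand of GRCh38.p14 and are written 5′ to 3′, from 250 bases before to 30 after the start, with matches in capitals.
FKBP5 chr6:35728554-35728833, half-site: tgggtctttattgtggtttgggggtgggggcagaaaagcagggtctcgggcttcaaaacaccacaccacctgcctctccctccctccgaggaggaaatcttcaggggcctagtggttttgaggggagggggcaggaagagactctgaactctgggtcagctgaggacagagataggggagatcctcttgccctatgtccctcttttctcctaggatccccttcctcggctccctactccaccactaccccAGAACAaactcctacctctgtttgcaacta
FKBP5 chr6:35688886-35689165, E-box: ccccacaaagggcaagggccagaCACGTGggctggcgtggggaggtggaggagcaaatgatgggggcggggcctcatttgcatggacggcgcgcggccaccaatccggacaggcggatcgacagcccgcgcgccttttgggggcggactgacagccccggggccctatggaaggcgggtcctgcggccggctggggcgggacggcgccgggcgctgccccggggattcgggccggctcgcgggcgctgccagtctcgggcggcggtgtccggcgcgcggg
PER1 chr17:8152375-8152654, E-box: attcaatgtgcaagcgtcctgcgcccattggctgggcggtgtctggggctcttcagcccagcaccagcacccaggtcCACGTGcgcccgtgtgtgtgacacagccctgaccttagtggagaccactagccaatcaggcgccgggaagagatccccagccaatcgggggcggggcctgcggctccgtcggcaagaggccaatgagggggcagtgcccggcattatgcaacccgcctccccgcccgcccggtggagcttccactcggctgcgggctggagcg
DUSP1 chr5:172771166-172771445, cAMP response element then E-box: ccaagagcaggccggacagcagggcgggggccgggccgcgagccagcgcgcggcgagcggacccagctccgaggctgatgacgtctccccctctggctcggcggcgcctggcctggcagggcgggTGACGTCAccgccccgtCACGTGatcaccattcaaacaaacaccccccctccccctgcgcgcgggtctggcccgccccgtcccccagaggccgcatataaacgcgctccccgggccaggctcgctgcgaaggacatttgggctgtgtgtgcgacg
SGK1 chr6:134177832-134178111, half-site: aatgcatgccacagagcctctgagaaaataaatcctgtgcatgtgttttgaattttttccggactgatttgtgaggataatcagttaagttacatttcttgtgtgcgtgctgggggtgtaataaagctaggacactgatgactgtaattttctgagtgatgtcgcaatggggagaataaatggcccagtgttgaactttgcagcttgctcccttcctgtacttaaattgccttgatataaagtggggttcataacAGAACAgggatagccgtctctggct

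The transcript of the receptor itself was modestly lower. NR3C1 (ENSG00000113580, GRCh38 chromosome 5, 143277931 to 143435512, minus strand) measured 19.3, 17.9 and 18.8 TPM with the MEN1 shRNA and 23.5, 24.0 and 22.7 TPM in the controls. Every MEN1 shRNA library was below every control library. Group means of 18.6 ± 0.717 and 23.4 ± 0.672 TPM (SD, n = 3 each) put the receptor transcript at 79.7% of control (log2 fold change -0.31 ± 0.0711 SE, 95% interval -0.48 to -0.15, adjusted p = 0.0073). NR3C1 is a gene of many isoforms, and TPM weights isoforms by their length. With gene-level coverage in place of TPM, a setting added after the data were seen, its log2 fold change was -0.19 with an adjusted p of 0.0558. Coverage per FPKM of NR3C1 was 9.53 to 11.1% of the library's value. On that scale its values are lower, so the 1 added before the log weighs more and shrinks the fold change. The same limit applies to the coverage values of every gene of many isoforms below.

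The 3 genes below had a profile over the 6 libraries closest to that of NR3C1 among 9890 genes compared, by the root mean square difference of centred log2(TPM + 1). They were C11orf68 at 0.0208, CHCHD3, a protein of the mitochondrial inner membrane, at 0.0229, and CBR4, a carbonyl reductase, at 0.0251. The log2 fold changes of C11orf68, CHCHD3 and CBR4 were -0.34, -0.33 and -0.30.

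Around the receptor, 30 genes were listed that encode other steroid receptors, steroid-converting enzymes, chaperones and coregulators. Of these 26 were tested, 6 were higher and 8 lower (53.8% called, beside 53.6% over all genes), with a median log2 fold change of -0.11. The lowest adjusted p values belonged to 2 genes of steroid biology and to a chaperone. PGR, the progesterone receptor, fell from 26.5 ± 1.5 to 7.91 ± 1.06 TPM (SD, n = 3 each; log2 fold change -1.63, adjusted p = 3.5e-05). HSD11B2, the enzyme that turns cortisol into inactive cortisone, fell from 11.6 ± 2.41 to 1.39 ± 0.532 TPM (-2.41, adjusted p = 8.7e-05). PPID, an HSP90 co-chaperone of steroid receptors, fell from 92.5 ± 3.94 to 52.9 ± 5.19 TPM (-0.80, adjusted p = 0.000175). NCOA3, a nuclear receptor coactivator, rose from 11.7 ± 0.527 to 20.0 ± 1.67 TPM (0.73, adjusted p = 0.000403). With gene-level coverage the log2 fold change of HSD11B2 was -1.43.

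HSP90AB1, HSP90AA1, FKBP4, NR3C2 and HSD11B1 were picked out after their values were seen. HSP90AB1 fell to 81.4% of control (log2 fold change -0.30, adjusted p = 0.0032), and FKBP4, the co-chaperone that promotes nuclear entry of the receptor, was at 89.5% (-0.16, adjusted p = 0.0291). The call of FKBP4 was lost under median-of-ratios scaling (-0.07, adjusted p = 0.269), without globin and mitochondrial genes (-0.09, adjusted p = 0.160), and in 5 of the 6 fits that left out 1 library (adjusted p up to 0.0945). HSP90AA1 had a log2 fold change of 0.05 with a 95% interval of -0.16 to 0.27. The mineralocorticoid receptor NR3C2, which also binds glucocorticoids, reached at most 0.705 TPM, and the cortisol-producing enzyme HSD11B1 was listed at 0 in all 6 libraries.

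FKBP5 was the most abundant of the 10 genes and fell in every replicate. It encodes FKBP51, an HSP90 co-chaperone that lowers the receptor's affinity for hormone and so closes a negative feedback loop. FKBP5 (ENSG00000096060, chromosome 6, 35573585 to 35728583, minus strand) measured 584, 485 and 498 TPM with the MEN1 shRNA and 808, 913 and 814 TPM in the controls. The groups were well apart, with MEN1 shRNA replicate 1 nearest to the controls. Means were 522 ± 53.9 and 845 ± 58.9 TPM (SD, n = 3 each), 61.8% of control (log2 fold change -0.70 ± 0.0868 SE, adjusted p = 0.00042). In the controls FKBP5 ranked 135 of the 14294 tested genes by mean TPM. Its half-site window above starts at the outermost of the starts searched, and its E-box window at an inner one.

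**Figure D1:**
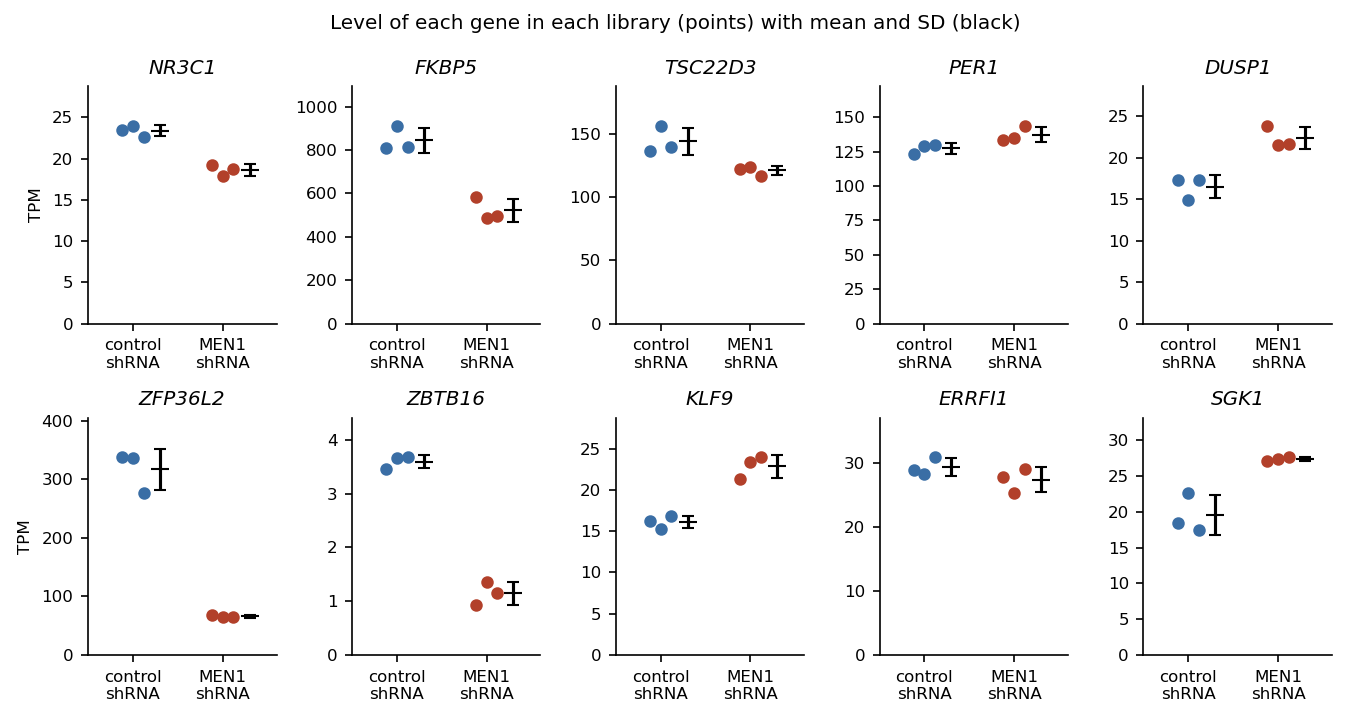
TPM of each of the 10 genes in the 3 control shRNA and 3 MEN1 shRNA libraries (points) with the group mean and SD (bars), each panel on its own linear axis from 0. ZFP36L2 and ZBTB16 show the widest gaps, with 66.0 against 317 TPM and 1.15 against 3.59 TPM, while the libraries of ERRFI1 overlap.

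Among the induced regulators of transcription, TSC22D3 and ZBTB16 were lower and KLF9 was higher. TSC22D3 encodes GILZ, a leucine zipper protein that carries part of the anti-inflammatory action of glucocorticoids. TSC22D3 (ENSG00000157514, chromosome X, 107713221 to 107777342, minus strand) measured 122, 124 and 117 TPM with the MEN1 shRNA and 136, 156 and 139 TPM in the controls. The groups were separate but close, and control replicate 2 was the highest. Means were 121 ± 3.85 and 144 ± 10.9 TPM (SD, n = 3 each), 84.0% of control (log2 fold change -0.25 ± 0.0682 SE, adjusted p = 0.0175). The call of TSC22D3 was lost without control replicate 2 (-0.19, adjusted p = 0.0509), without MEN1 shRNA replicate 3 (-0.22, adjusted p = 0.0587), and under median-of-ratios scaling (-0.16, adjusted p = 0.0666). It was also lost when globin and mitochondrial genes were left out of the total (-0.18, adjusted p = 0.0585) and with gene-level coverage (-0.21, adjusted p = 0.0728).

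ZBTB16 encodes PLZF, a zinc finger repressor induced by glucocorticoids in many tissues. ZBTB16 (ENSG00000109906, chromosome 11, 114059041 to 114256765, plus strand) was the least abundant of the 10, with 0.936, 1.36 and 1.16 TPM in the MEN1 shRNA libraries and 3.45, 3.66 and 3.68 TPM in the controls. All MEN1 shRNA libraries were far below the controls. Means were 1.15 ± 0.213 and 3.59 ± 0.128 TPM (SD, n = 3 each), 32.0% of control (log2 fold change -1.10 ± 0.138 SE, 95% interval -1.42 to -0.78, adjusted p = 0.00042). Few reads lie behind these values: mean coverage of ZBTB16, not scaled for depth, was 0.0939 to 0.512 reads per base with the MEN1 shRNA and 1.03 to 1.65 in the controls. The log2 fold change of ZBTB16 depended on the scale, from -1.58 with a pseudocount of 0.1 to -0.29 with gene-level coverage. ZBTB16 values in gene-level coverage are small beside the 1 added before the log, which shrinks that fold change, so -0.29 does not show a smaller fall. The direction and call of ZBTB16 held in each setting in which it was tested.

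KLF9 encodes a zinc finger transcription factor of the Krüppel-like family. KLF9 (ENSG00000119138, chromosome 9, 70384604 to 70414657, minus strand) measured 21.3, 23.4 and 24.0 TPM with the MEN1 shRNA and 16.2, 15.3 and 16.9 TPM in the controls. The rise was seen in all 3 replicates with no overlap. Means were 22.9 ± 1.39 and 16.1 ± 0.772 TPM (SD, n = 3 each), a ratio of 1.42 (log2 fold change 0.48 ± 0.0807 SE, adjusted p = 0.0017). The NR3C1 and KLF9 transcript levels thus changed in opposite directions between the same libraries.

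The largest change among the 10 genes was that of ZFP36L2. It encodes an RNA-binding protein that speeds the decay of mRNAs with AU-rich elements, and it is known as a glucocorticoid-induced gene that early erythroid progenitors need for self-renewal. ZFP36L2 (ENSG00000152518, chromosome 2, 43222402 to 43226606, minus strand) measured 68.9, 64.1 and 65.0 TPM with the MEN1 shRNA and 338, 337 and 277 TPM in the controls. The MEN1 shRNA libraries lay close together, and control replicate 3 was the lowest control. Means were 66.0 ± 2.56 and 317 ± 34.9 TPM (SD, n = 3 each), 20.8% of control (log2 fold change -2.24 ± 0.0867 SE, 95% interval -2.44 to -2.04, adjusted p = 1.1e-05). By absolute log2 fold change ZFP36L2 stood at percentile 99.0 of all tested genes. ZFP36L2 has a single annotated transcript, and its coverage was 168 to 240 reads per base with the MEN1 shRNA and 880 to 1647 in the controls. These coverage values are not scaled for depth, which differed between the groups as given above, so their gap is not a fold change. Leaving out any 1 library gave log2 fold changes from -2.34 to -2.19.

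The paralogs of ZFP36L2 did not pass the test on TPM with all libraries. ZFP36, or tristetraprolin, measured 48.8 ± 0.181 TPM with the MEN1 shRNA and 54.4 ± 4.64 TPM in the controls (SD, n = 3 each; log2 fold change -0.15, adjusted p = 0.122). ZFP36L1 measured 32.4 ± 0.409 and 21.7 ± 7.58 TPM (0.62, adjusted p = 0.0573), and its control replicate 3 was low at 13.4 TPM. ZFP36L1 passed without that library (0.32, adjusted p = 0.0336), without control replicate 2 (0.82, adjusted p = 0.0195) and under median-of-ratios scaling (0.70, adjusted p = 0.0364). It also passed in FPKM (0.62, adjusted p = 0.0490) and without globin and mitochondrial genes in the total (0.68, adjusted p = 0.0397). Over the 10 relatives listed for ZFP36L2, KLF9 and TSC22D3, 9 were tested, 2 were higher and 1 lower (33.3% called, beside 53.6% over all genes). These were the Krüppel-like factors KLF10 (26.3 to 47.7 TPM, log2 fold change 0.83, adjusted p = 7.8e-05), KLF13 (61.1 to 76.8 TPM, 0.32, adjusted p = 0.00393) and KLF16 (43.1 to 21.8 TPM, -0.92, adjusted p = 0.00279). With gene-level coverage the log2 fold change of KLF16 was -1.49. KLF14 was listed at 0 throughout.

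Of the 3 regulators of kinase signalling, DUSP1 and SGK1 were higher and ERRFI1 did not pass the test. DUSP1 encodes a phosphatase that inactivates the MAP kinases p38, JNK and ERK. DUSP1 (ENSG00000120129, chromosome 5, 172768096 to 172771195, minus strand) measured 23.9, 21.6 and 21.7 TPM with the MEN1 shRNA and 17.3, 14.9 and 17.3 TPM in the controls. All MEN1 shRNA libraries were above all controls. Means were 22.4 ± 1.30 and 16.5 ± 1.39 TPM (SD, n = 3 each), a ratio of 1.36 (log2 fold change 0.42 ± 0.0895 SE, adjusted p = 0.0054). DUSP1 has a single start in the windows above, which holds a cAMP response element 125 bases and an E-box 108 bases before it.

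SGK1 encodes a short-lived serine/threonine kinase of the AKT family, first found as a serum- and glucocorticoid-regulated gene. SGK1 (ENSG00000118515, chromosome 6, 134169248 to 134318112, minus strand) measured 27.2, 27.4 and 27.7 TPM with the MEN1 shRNA and 18.4, 22.7 and 17.5 TPM in the controls. The MEN1 shRNA libraries were nearly equal and higher than the controls, which were more spread. Means were 27.4 ± 0.246 and 19.5 ± 2.78 TPM (SD, n = 3 each), a ratio of 1.40 (log2 fold change 0.48 ± 0.102 SE, adjusted p = 0.0056). With gene-level coverage the log2 fold change of SGK1 was 0.26 with an adjusted p of 0.0053. Coverage per FPKM of SGK1 was 2.99 to 3.44% of the library's value. On that scale the 1 added before the log weighs more and shrinks the fold change, so 0.26 does not show a smaller rise.

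ERRFI1 encodes MIG6, an inhibitor of the EGF receptor family. ERRFI1 (ENSG00000116285, chromosome 1, 8004404 to 8026309, minus strand) measured 27.8, 25.2 and 29 TPM with the MEN1 shRNA and 28.8, 28.2 and 30.9 TPM in the controls. The groups overlapped. The log2 fold change was -0.10 ± 0.0786 SE, with a 95% interval from -0.28 to 0.09 and an adjusted p of 0.33. Of the receptors that MIG6 binds, ERBB2 was at 3.50 to 5.11 TPM, while EGFR reached at most 0.0118 TPM and ERBB4 at most 0.00327 TPM.

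MAP kinases, their phosphatases and the EGF receptor family made up a list of 20 genes. In this list 14 were tested, 6 were higher and 5 lower (78.6% called, beside 53.6% over all genes, median log2 fold change 0.05). The phosphatases went both ways. DUSP4, an inducible nuclear phosphatase, measured 3.24, 4.03 and 4.28 TPM with the MEN1 shRNA and 0.0719, 0.129 and 0.0570 TPM in the controls, a clear separation from a level near 0 (log2 fold change 2.15, adjusted p = 4.8e-05). Because testing needed 1 TPM in 3 libraries, DUSP4 was tested only through its high MEN1 shRNA values. Its call, counted among the 6 higher and in the called share, is thus no support for a rise of the list. DUSP5, a nuclear ERK phosphatase, rose from 2.06 ± 0.293 to 4.88 ± 0.410 TPM (0.94, adjusted p = 0.000686). DUSP7, a cytoplasmic ERK phosphatase, fell from 9.04 ± 0.812 to 4.16 ± 0.488 TPM (-0.96, adjusted p = 0.000399). MAPK12, the gamma form of p38, fell from 5.52 ± 0.723 to 1.97 ± 0.0707 TPM (-1.13, adjusted p = 0.000281). The log2 fold change of DUSP4 was 4.42 with a pseudocount of 0.1 and 1.42 in FPKM, and that of MAPK12 was -0.53 with gene-level coverage.

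The list of 13 genes around SGK1 held the kinases that activate it, its relatives and its substrates. Of these 12 were tested, 3 were higher and 4 lower (58.3% called, beside 53.6% over all genes, median log2 fold change 0.16). NDRG1, whose protein is a substrate of SGK1, rose from 85.6 ± 10.2 to 173 ± 8.13 TPM (SD, n = 3 each; log2 fold change 1.02, adjusted p = 9.6e-05). RICTOR, a subunit of the mTORC2 complex that phosphorylates SGK1, rose from 10.5 ± 1.31 to 20.8 ± 1.99 TPM (0.93, adjusted p = 0.000395). MLST8, another subunit of that complex, fell from 83.2 ± 2.27 to 48.9 ± 8.68 TPM (-0.77, adjusted p = 0.0011), and AKT1 fell from 76.0 ± 2.81 to 44 ± 6.96 TPM (-0.78, adjusted p = 0.000665). The paralog SGK2 reached at most 0.127 TPM. These are transcript levels and carry no measure of kinase activity.

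**Figure D2:**
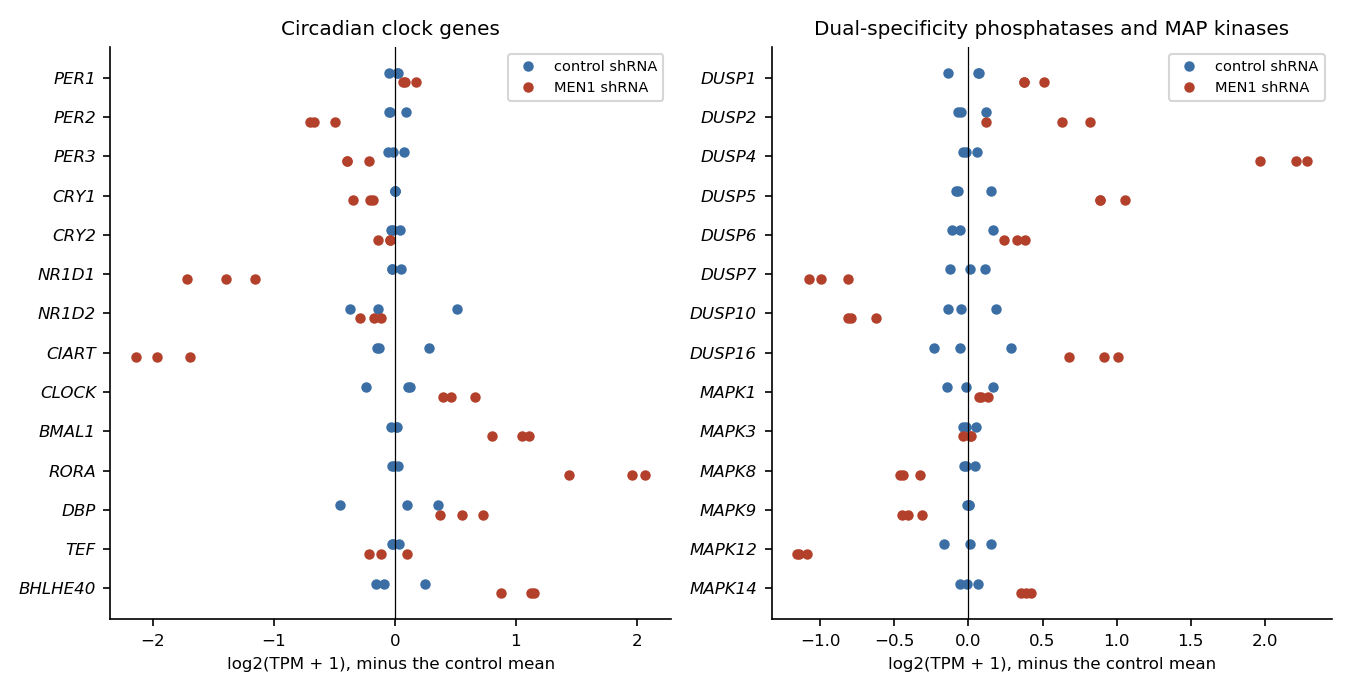
log2(TPM + 1) minus the control mean in each library (points, by group) for 14 clock genes including PER1 and 14 phosphatase and MAP kinase genes including DUSP1, where 0 is the control mean. In the clock panel RORA and BMAL1 lie to the right with the MEN1 shRNA and CIART and NR1D1 to the left, with PER1 close to 0.

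PER1 was the one of the 10 genes whose libraries were apart without passing the test. It encodes a repressor of the circadian clock that glucocorticoids induce directly. PER1 (ENSG00000179094, chromosome 17, 8140472 to 8156506, minus strand) measured 133, 135 and 144 TPM with the MEN1 shRNA and 123, 129 and 130 TPM in the controls. The lowest MEN1 shRNA library was above the highest control, by a margin that was small beside the spread within groups. Means were 137 ± 5.68 and 127 ± 3.72 TPM (SD, n = 3 each), 108% of control (log2 fold change 0.11 ± 0.0564 SE, 95% interval -0.02 to 0.24, adjusted p = 0.142). PER1 passed under median-of-ratios scaling (0.20, adjusted p = 0.0140) and without globin and mitochondrial genes in the total (0.18, adjusted p = 0.0293), and had the opposite sign with gene-level coverage (-0.0056, adjusted p = 0.904). Its coverage per FPKM, which moves with the mix of isoforms, was 36.9 to 40.0% of the library's value with the MEN1 shRNA and 41.0 to 43.2% in the controls.

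Of 18 other clock genes listed, 15 were tested, 4 were higher, 5 lower and 6 did not pass (60% called, beside 53.6% over all genes, median log2 fold change -0.07). RORA, an activator of BMAL1 transcription, rose from 7.03 ± 0.156 to 27.9 ± 6.26 TPM (SD, n = 3 each; log2 fold change 1.82, adjusted p = 9.3e-05), and BMAL1, which binds E-boxes with CLOCK, rose from 7.01 ± 0.148 to 15.0 ± 1.73 TPM (0.99, adjusted p = 0.000203). NR1D1, or REV-ERB alpha, which represses BMAL1, fell from 6.86 ± 0.231 to 1.96 ± 0.570 TPM (-1.43, adjusted p = 0.000264). CIART, a repressor of CLOCK and BMAL1, fell from 13.8 ± 2.58 to 2.87 ± 0.615 TPM (-1.93, adjusted p = 8.8e-05).

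With gene-level coverage the log2 fold changes of RORA and BMAL1 were smaller, at 0.17 and 0.40, and both still passed. The other period genes, picked out after their values were seen, were lower: PER2 at 60.5% of control (log2 fold change -0.62, adjusted p = 0.00224) and PER3 at 78.1% (-0.34, adjusted p = 0.0154). The call of PER3 was lost without MEN1 shRNA replicate 2 (adjusted p = 0.0528), MEN1 shRNA replicate 3 (adjusted p = 0.0508) or control replicate 3 (adjusted p = 0.0587).

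**Figure D3:**
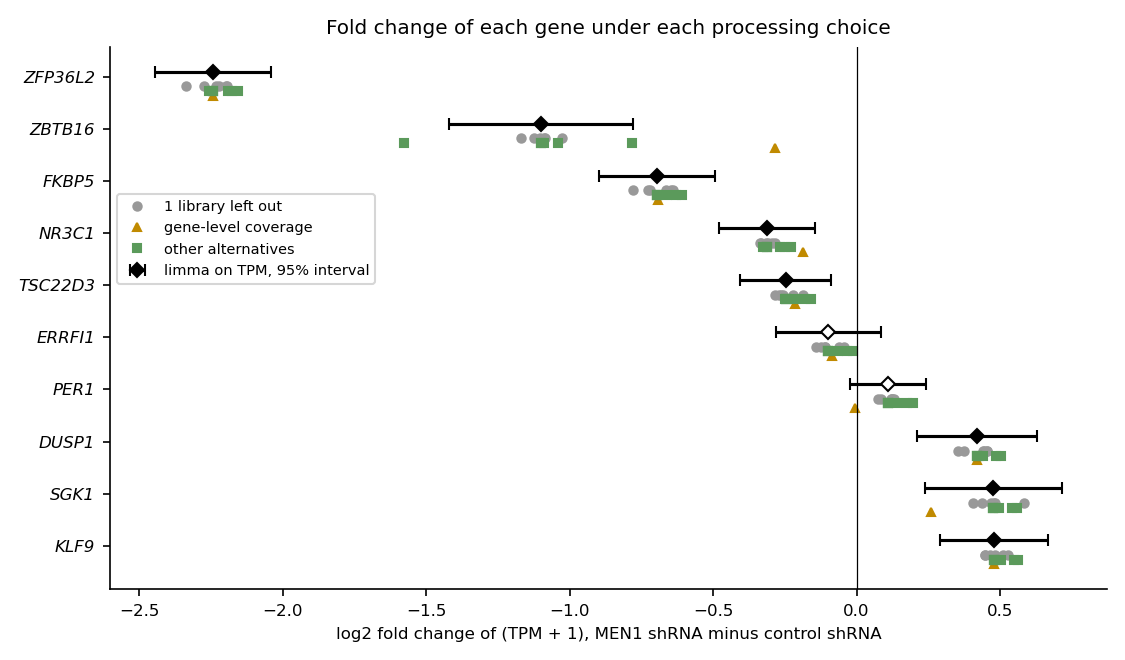
log2 fold change of (TPM + 1), MEN1 shRNA minus control shRNA, for the 10 genes, with the value reported (diamond, filled where the adjusted p is under 0.05), its 95% interval and smaller marks for each other processing choice. ZFP36L2 stays near -2.24, ZBTB16 spreads from -1.58 to -0.29, and PER1 is at 0.11 with 1 choice, gene-level coverage, just below 0 at -0.0056. The -0.29 of ZBTB16 is also with gene-level coverage, where its small values shrink the fold change.

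Over the 10 genes, the libraries of the 2 groups did not overlap for 9, against 61.8% of all tested genes. In the controls the order of mean TPM was FKBP5, ZFP36L2, TSC22D3, PER1, ERRFI1, NR3C1, SGK1, DUSP1, KLF9 and ZBTB16. Neighbours in that order were apart in every library except NR3C1 and SGK1, and DUSP1 and KLF9, which overlapped. With the MEN1 shRNA the order was FKBP5, PER1, TSC22D3, ZFP36L2, SGK1, ERRFI1, KLF9, DUSP1, NR3C1 and ZBTB16, where SGK1 overlapped ERRFI1 and KLF9 overlapped DUSP1. ZFP36L2 thus went from the second to the fourth place, and NR3C1 from above DUSP1 and KLF9 to below both.

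Other genes known to be induced by glucocorticoids in at least 1 cell type were taken as a list of 30. Of these 22 were tested, 6 were higher, 3 lower and 13 did not pass (median log2 fold change 0.13), a called share of 40.9% beside 53.6% over all genes. BCL6, a transcriptional repressor, measured 6.83, 10.4 and 14.2 TPM with the MEN1 shRNA and 0.312, 0.762 and 0.664 TPM in the controls (log2 fold change 2.82, adjusted p = 9.6e-05). BIRC3, an inhibitor of apoptosis, measured 2.32, 5.37 and 5.61 TPM against 0.301, 0.391 and 0.185 TPM (2.01, adjusted p = 0.000631). Both were below 1 TPM in every control and above it in every MEN1 shRNA library, of which replicate 1 was the lowest for each gene. Because testing needed 1 TPM in 3 libraries, BCL6 and BIRC3 were tested only through their high MEN1 shRNA values. Genes at such control levels could not be tested without a rise, so these calls among the 6 higher are no support for a rise of the list.

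RASD1, a Ras-related protein first described as induced by dexamethasone, rose from 6.77 ± 1.37 to 15.0 ± 1.66 TPM (SD, n = 3 each; log2 fold change 1.05, adjusted p = 0.00086), and SLC19A2, a thiamine transporter, fell from 6.31 ± 1.14 to 2.39 ± 0.442 TPM (-1.11, adjusted p = 0.000829). GLUL, glutamine synthetase, was picked out after its values were seen: it measured 135, 268 and 256 TPM against 544, 537 and 550 TPM (-1.37, adjusted p = 0.00194). Its controls were nearly equal, and MEN1 shRNA replicate 1 was the lowest. The log2 fold change of BCL6 was 1.38 with gene-level coverage and 3.97 with a pseudocount of 0.1, and that of BIRC3 was 3.47 with a pseudocount of 0.1.

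**Figure D4:**
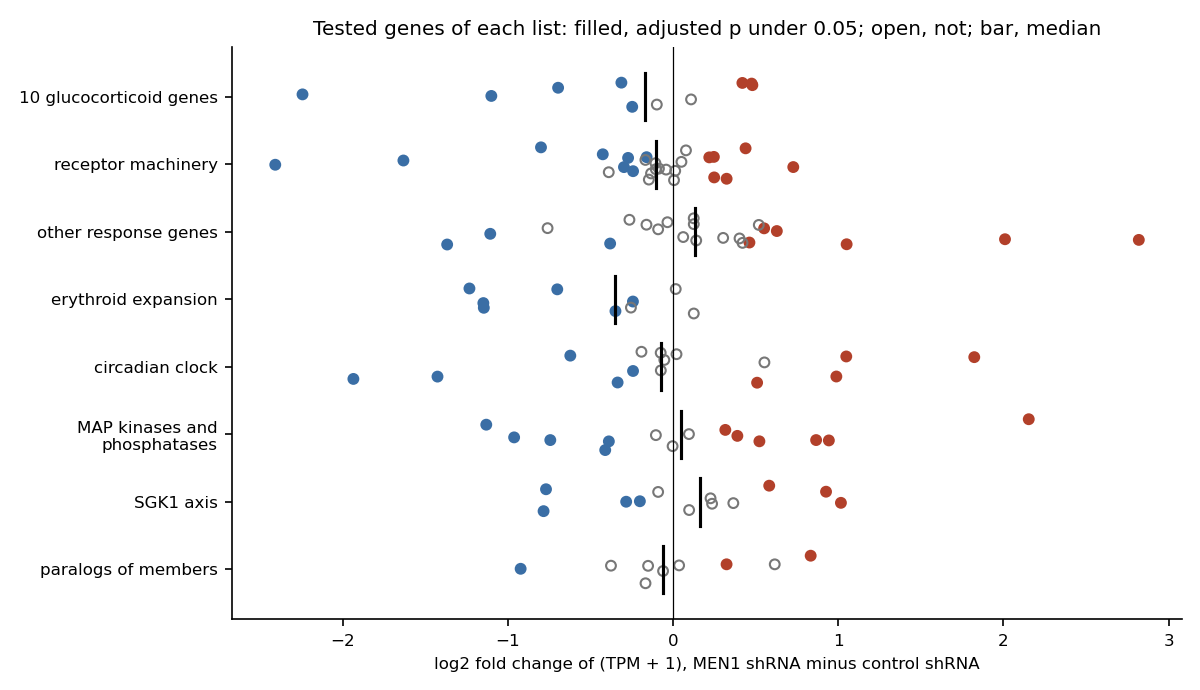
log2 fold change of (TPM + 1), MEN1 shRNA minus control shRNA, for the tested genes of each list (points; filled where the adjusted p is under 0.05) with the list's median (bar). The erythroid expansion list has the lowest median, -0.35, with no filled point above 0, and the other lists have medians between -0.17 and 0.16 with filled points on both sides.

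Genes that act with the receptor in expanding erythroid progenitors were a list of 9, all tested, of which 6 were lower and none higher (median log2 fold change -0.35). The called share was 66.7%, beside 53.6% over all genes, of which 31.5% were lower. KIT, the receptor for stem cell factor, fell from 271 ± 18.6 to 122 ± 3.47 TPM (SD, n = 3 each; log2 fold change -1.15, adjusted p = 2.6e-05). MYB, a transcription factor of dividing progenitors, fell from 250 ± 11.8 to 106 ± 8.91 TPM (-1.23, adjusted p = 3.0e-05). GATA2, a progenitor transcription factor, fell from 157 ± 9.84 to 72.1 ± 17.8 TPM (-1.14, adjusted p = 0.00101). STAT5A, which signals from the erythropoietin receptor, fell from 161 ± 10.6 to 98.9 ± 2.98 TPM (-0.70, adjusted p = 0.000113). The erythropoietin receptor gene EPOR measured 104 ± 7.34 and 103 ± 3.81 TPM (0.02, 95% interval -0.14 to 0.18). Beside these values stand the erythroid markers, 8 of 10 higher, and their part in the values of this list and of the 10 genes was not tested.

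Markers of other blood cell types were mostly low, apart from ITGA2B among those of megakaryocytes and the tryptase genes TPSAB1 and TPSB2 among those of mast cells. Of 6 megakaryocyte markers 5 were below 1 TPM in every library, with PF4 and PPBP listed at 0, and the sum was 16.6 to 21.3 TPM with the MEN1 shRNA and 31.8 to 36.7 TPM in the controls. For monocytes and granulocytes, 7 of 8 were below 1 TPM in every library, S100A8 was listed at 0, and the sum was 0.396 to 1.39 against 2.15 to 2.43 TPM. For lymphoid cells 6 of 7 were below 1 TPM in every library, MS4A1 was listed at 0, and the sum was 3.97 to 6.05 against 1.11 to 1.32 TPM. The 5 mast cell and basophil markers summed to 725 to 885 TPM with the MEN1 shRNA and 1037 to 1307 TPM in the controls, with 2 of the 5, CPA3 and HDC, below 1 TPM in every library. Nearly all of that sum is TPSAB1 and TPSB2, near-identical genes between which reads may be split. Whether these shifts have a part in the values of the 10 genes was not tested.

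Rows of other genes overlapped 9 of the 10, the exception being KLF9. The largest was RPL7P21, a ribosomal protein pseudogene within NR3C1 on the opposite strand, at up to 3.45 TPM. Libraries were strand-specific per the labels, and whether quantification used strand is not given in the sources used here, so the level of RPL7P21 and the NR3C1 reads over it are uncertain. For the other genes the highest overlapping row reached 0.130 to 2.17 TPM.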

How the data were processed

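Per the submitters' processing notes, FastQC, Trimmomatic, STAR 2.7.1a, Picard 2.20.4, StringTie 2.0.4 and the hg38 build were used. The annotation is not given in the sources used here. Each library has 1 table of gene-level values. The deposited values are TPM, which total 1000000 per library, and FPKM, scaled by transcript length and depth, per the file headers. The deposited coverage is a signal per base, not scaled for depth. Slightly negative deposited values of 2 genes in control replicate 2, kept as an other unit, were set to 0. No read counts were used.

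Genes that reached 1 TPM in 3 or more of the 6 libraries were tested with limma 3.58.1 (lmFit, eBayes with trend) in R 4.3.3. TPM is a share, so abundant transcripts lower all others. Alternatives were another pseudocount, 2 other filters, FPKM, 2 scalings, no trend, a replicate block and leaving out each library. Gene-level coverage divided by the library's coverage per FPKM was added after the data were seen. It spreads reads over all exons of a gene, so values of genes with many isoforms are small beside the pseudocount and their fold changes shrink.

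The 10 genes and all gene lists were chosen with earlier results of these data known. Besides the 10 genes and MEN1, the text names up to 4 genes per list with the lowest adjusted p and the 3 most like NR3C1, and other genes after their values were seen. The fit was also run on simulated data with far fewer changed genes than were called here, each changed at least 2-fold. Because that setting differs from these data, the run gives no support to the calls reported.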

Additional observations from a re-analysis of the deposited data

How the results depend on the processing

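Of 149 recalculated values of the 10 genes, 140 kept their direction and their side of the threshold. The exceptions concern NR3C1, TSC22D3 and PER1, and their values stand beside each gene above. The 1 change of direction was PER1 with gene-level coverage, at -0.0056. With that quantity 3 of the 10 genes were lower in place of 5, and 6 were called. In the other alternatives 7 or 8 of the 10 were called, and 7 or 8 when leaving out 1 library. Under median-of-ratios scaling and without globin and mitochondrial genes the split was 4 higher and 4 lower. All 577 recalculated values of 39 genes chosen by the naming rule kept direction and call. Of 149 values of 10 genes named after their values were seen, 127 did. The exceptions were FKBP4, PER3, ZFP36L1, and 2 uncalled genes that changed sign: HSP90AA1 (-0.0209 to 0.145 over fits without 1 library, below 0 without MEN1 shRNA replicate 3) and EPOR (-0.0181 with gene-level coverage, and -0.0335 to 0.0676 over fits without 1 library, below 0 without MEN1 shRNA replicate 1 or control replicate 2). Over all genes, 6345 to 7674 passed, and 6577 to 7542 when leaving out 1 library. The share of calls that were higher was 41.2%, and 49.5% under median-of-ratios scaling. The labels number the replicates and do not state a pairing. Same-numbered deviations from the group means correlated at 0.0171, -0.0265 and -0.0124, which does not settle whether those libraries shared a culture or batch. With a block for the replicate number, 7012 genes passed and 8 of the 10 genes were called, 3 higher and 5 lower. ZBTB16 was not tested at a mean TPM of 5 or more. Depth limits ZBTB16 most, with a coverage of 0.0939 to 1.65 reads per base.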
